A study of Mus musculus with 2 samples.

Results

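The genes described here are well-expressed long intergenic noncoding RNAs (lincRNAs), that is, RNAs made from their own genes between protein-coding genes and annotated as not coding for protein. They were taken from the deposited gene table as the rows of biotype lincRNA whose mean over both libraries was at least 3 FPKM (fragments per kilobase of gene length, scaled for library size). Of 5559 lincRNA rows among 54532 rows in all, 2515 were above 0 in either library, 344 averaged 1 FPKM or more and 111 averaged 3 FPKM or more. H19, Meg3 and Gm42031 were then left out by name, which gave 108 genes. All 108 had fragments in both libraries, 84 were at 3 FPKM or more in both, 15 in the library labelled KO only and 9 in the library labelled WT only. The genes were thus chosen by their mean FPKM over the KO and WT libraries, so their levels are a description. At the threshold, 4930571K23Rik (mean 3.02 FPKM) and Gm36738 (mean 3.03 FPKM) were just inside, and Lsmem2 (mean 2.95 FPKM) and Gm1976 (mean 2.99 FPKM) were just outside.

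RNA was sequenced from mice with a knockout of Trappc9 (KO), which encodes a subunit of the TRAPP vesicle-transport complexes, and from wild-type mice (WT), with 1 library per genotype. Per the series' design text, abdominal fat pads of 3 KO and 3 WT mice, 3 to 4 weeks old, went through a collagenase digest and the cell pellet was put into TRIzol. The titles call the material stem cells from adipose tissue, the extraction label describes frozen fat pads, and the sources used here do not say which was sequenced, whether mice were pooled or how the knockout allele was made. With 1 library per group there is no replicate check, so no p-value is given, and each ratio has a 95% interval (exact binomial, Clopper-Pearson) computed on the fragments behind it, which covers counting error only. In bulk RNA, fewer cells of a type and less RNA per cell cannot be told apart.

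The libraries held 14783728 fragments (KO) and 13705193 fragments (WT). Trappc9 itself stood at 12.6 FPKM in the library labelled KO and 9.94 FPKM in the library labelled WT, a ratio of 1.27 (interval 1.17 to 1.37). The gene as a whole was therefore not lower in KO. The label adipose fitted the markers in part. The 8 adipocyte markers summed to 35.9 FPKM (KO) and 39.3 FPKM (WT), most of it Fabp4, a fatty acid binding protein (27.04 FPKM in KO, 25.1 FPKM in WT), while the hormone gene Adipoq was at 0.506 FPKM (KO) and 2.30 FPKM (WT). Progenitor markers were well expressed, such as Pdgfra (30.7 FPKM in KO, 34.2 FPKM in WT) and Ly6a (78.9 FPKM in KO, 67.5 FPKM in WT). The most abundant by far were epididymal: Gpx5, a secreted glutathione peroxidase of the epididymis, was at 11686 FPKM (KO) and 10039 FPKM (WT). The summed level of 12 epididymal epithelium markers was 32667 FPKM (KO) and 23980 FPKM (WT), and 12 of the 12 were higher in KO beyond counting error. Of 8 male germ cell markers, 6 were higher and 1 lower, with sums of 174 FPKM (KO) and 40.5 FPKM (WT). Of 8 cell cycle markers, 8 were lower, with sums of 32.1 FPKM (KO) and 65.9 FPKM (WT), and of 8 progenitor and fibroblast markers 6 were lower and 2 higher, with sums of 864 FPKM (KO) and 1212 FPKM (WT). Of 4 mesothelial markers 4 were lower, with sums of 27.1 FPKM (KO) and 47.8 FPKM (WT). Of 5 endothelial markers 3 were higher and 1 lower, with sums of 36.1 FPKM (KO) and 32.2 FPKM (WT), and of 6 leukocyte markers the 4 that averaged 1 FPKM or more had intervals that held 1, with sums over the list of 35.5 FPKM (KO) and 36.2 FPKM (WT). No marker on these lists was at 0 in both libraries. These counts hold for FPKM as deposited, where 27.4% of all genes past 3 FPKM were higher beyond counting error and 16.5% lower. With both libraries given the same sum of FPKM, 8.53% of all genes were higher and 49.2% lower. Then 10 of the 12 epididymal markers were higher, and the germ cell, cell cycle and mesothelial counts stayed. That scaling multiplies every ratio of KO over WT by 0.869, so no lower call could be lost under it. Progenitor markers became 0 higher and 6 lower, endothelial ones 0 higher and 1 lower, and 3 of the 4 leukocyte markers were lower. Several of these marker lists moved with the labels, and their part in the lincRNA ratios below was not tested.

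LincRNAs are transcribed by RNA polymerase II and are usually capped, spliced and polyadenylated like messenger RNAs. Some stay in the nucleus and build or occupy nuclear bodies, some act in the cytoplasm by binding proteins or microRNAs, and some mainly carry small nucleolar RNAs (snoRNAs) in their introns. Most predicted lincRNAs have no assigned function, and many are short and present at low levels compared with messenger RNAs.

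The 108 genes lay on 19 chromosomes, with 13 on chromosome 5, 11 on chromosome 10 and 10 on chromosome 11. Predicted-gene names starting with Gm made up 58 of them and Rik clone names 30, and 13 stood in a list of lincRNAs with a described role. Their median level was 5.19 FPKM in KO and 4.89 FPKM in WT. The median of the 2-library mean was 4.93 FPKM, against 10.2 FPKM for the 10181 protein-coding genes above the same threshold. In all, 32 lincRNAs averaged 10 FPKM or more and 6 averaged 30 FPKM or more. They were also shorter: the median gene length was 1347 bases (228 to 20771 bases), against 4190 bases for the protein-coding genes. Low level and short length together left a median of 199.5 fragments per lincRNA over both libraries, against 1317 per protein-coding gene.

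Together the 108 genes took 0.332% of the fragments in KO (interval 0.329% to 0.334%) and 0.356% in WT (interval 0.353% to 0.359%). This was 69.5% of all lincRNA fragments in KO and 67.4% in WT. Malat1 alone held 33.0% of their fragments in KO and 40.0% in WT, and the 5 genes with the most fragments held 60.1% in KO and 64.2% in WT. Without Malat1 the order of the libraries turned round, with 0.222% in KO and 0.214% in WT.

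**Figure D1:**
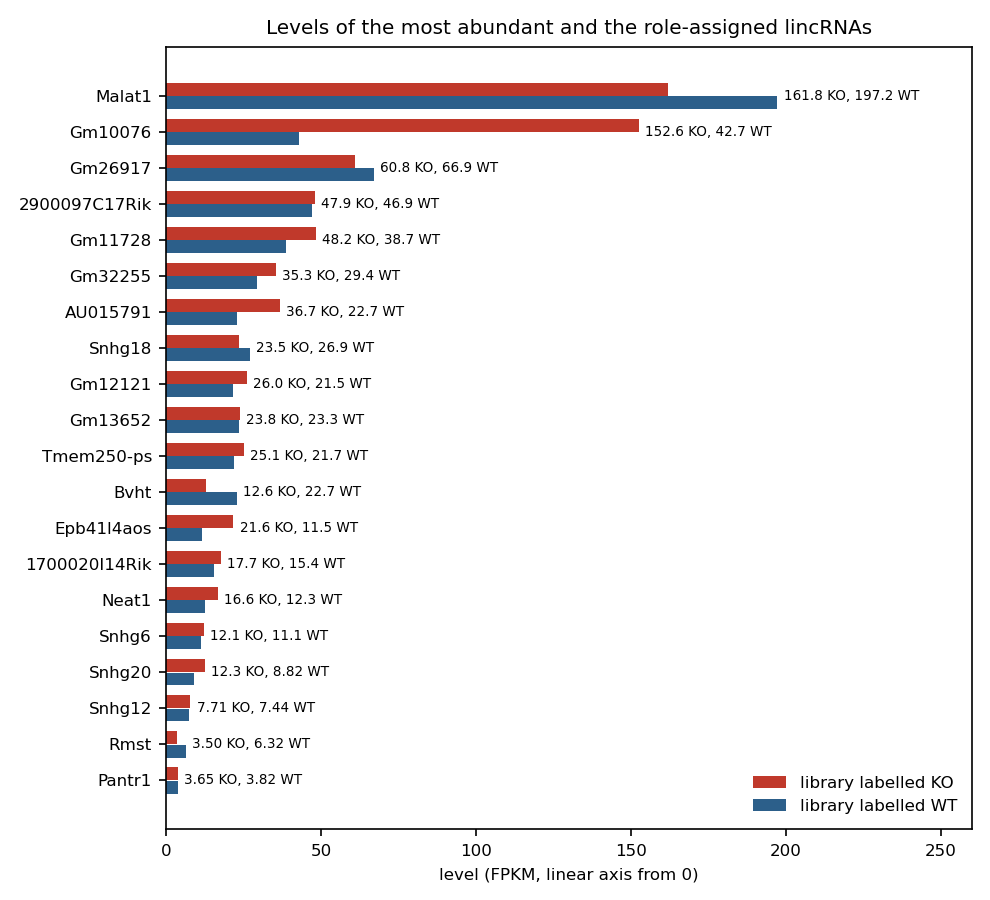
Level in FPKM (linear axis) of the 12 lincRNAs with the highest mean and of those with a described role, 1 bar per library, with the library labelled KO above the library labelled WT. Malat1 and Gm10076 stand above all others in KO, and Gm10076 has 153 FPKM in KO and 42.7 FPKM in WT.

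The nuclear body RNAs were Malat1 and Neat1, neighbours on chromosome 19. Malat1 (ENSMUSG00000092341, mm10 chr19:5795690-5802672, minus strand) is enriched in nuclear speckles, where splicing factors gather. It was the most abundant lincRNA in both libraries, at 162 FPKM in KO (16160 fragments) and 197 FPKM in WT (19503 fragments), and was lower in KO by 0.28 on the log2 scale (log2 ratio -0.28, with a pseudocount of 1 FPKM as throughout). The ratio was 0.820 (interval 0.804 to 0.838). Neat1 (ENSMUSG00000092274, chr19:5824708-5845478, minus strand) is the architectural RNA of paraspeckles and, with 20771 bases, the longest lincRNA here. It went the other way, with 16.6 FPKM in KO (4944 fragments) and 12.3 FPKM in WT (3617 fragments), a log2 ratio of 0.41 and a ratio of 1.35 (interval 1.30 to 1.41). Neat1 stayed higher under every scaling tried. These scalings multiply the ratio of KO over WT by 0.869, 0.936 or 0.957, so Malat1 could only go lower. As background, 27.4% of all 11079 genes past the threshold of 3 FPKM were higher in KO beyond counting error and 16.5% were lower, and 8.53% were higher and 49.2% lower when both libraries were given the same sum of FPKM. Of 12 genes for nuclear speckle proteins, 4 were higher in KO beyond counting error and 4 lower, with a median log2 ratio of -0.03. Of 12 genes for paraspeckle proteins, 0 were higher and 5 lower, with a median log2 ratio of -0.06, against 0.03 over all 11079 genes. With the same sum, 12 of the 12 speckle genes and 12 of the 12 paraspeckle genes were lower, so these counts depend on the scaling. The largest paraspeckle difference was Hnrnph3, with 10.2 FPKM in KO and 13.0 FPKM in WT (log2 ratio -0.32).

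The cytoplasmic regulators were 2900097C17Rik, the mouse Norad, and 1700020I14Rik, known as Cyrano. Norad (ENSMUSG00000102869, chr2:156388065-156392979, minus strand) binds Pumilio proteins, which repress messenger RNAs, and is needed for stable chromosome number in cultured cells. Its sequence is shown because the Pumilio sites are what it is known for: the element TGTANATA, searched on the transcript's own strand, occurred 11 times in its 4915 bases, or 2.24 per kb. The first 4 of these (element in capitals, flanks in lower case, written as DNA) are:
element 1: gtcctgTGTATATAatatga
element 2: acatgcTGTAAATAcctttt
element 3: tttcttTGTACATAgtgtat
element 4: ctgctgTGTATATAgtggac
The printed stretches, left flank included, begin at bases 645, 1141, 1330 and 1517 of the GENCODE M21 transcript. The element occurred in 20 of the 108 lincRNAs, at 0.119 per kb over the others, and the next highest number was 4 in Neat1. Per kb, Gm20703 stood higher than Norad, at 2.60, from 1 element in 385 bases. Gm7292, a lincRNA on chromosome 6, was 99.2% identical over 2537 of the 4915 bases of Norad. It had 0.249 FPKM in KO and 0.224 FPKM in WT, and how reads that match both were counted is not given. Norad had 47.9 FPKM in KO (3369 fragments) and 46.9 FPKM in WT (3266 fragments). The log2 ratio was 0.03 and the ratio interval 0.973 to 1.07 held 1, whereas with the same sum of FPKM in both libraries the log2 ratio was -0.17 and the interval, 0.846 to 0.932, lay below 1. Of 5 measured genes for Pumilio proteins and their partners, 1 was higher in KO beyond counting error (Pum2, 27.1 FPKM in KO and 25.6 FPKM in WT) and 1 was lower (Khdrbs1, log2 ratio -0.21). With the same sum 5 of the 5 were lower, Pum2 included. Over all genes past 3 FPKM, 27.4% were higher and 16.5% lower as deposited, and 8.53% were higher and 49.2% lower with the same sum.

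Cyrano (ENSMUSG00000085438, chr2:119594297-119607502, plus strand) holds a site of extensive pairing to the microRNA miR-7, through which it is known to direct the destruction of that microRNA. The site and the microRNA (RefSeq, GRCm38.p6) are shown with paired bases of the site and the seed, bases 2 to 8 of the microRNA, in capitals:
site in 1700020I14Rik: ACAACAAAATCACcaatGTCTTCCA
mmu-miR-7a-5p: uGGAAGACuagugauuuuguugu
The site spans bases 2935 to 2959 of the transcript, and 21 of the 23 bases of the microRNA were paired, 8 on the seed side and 13 beyond 4 unpaired bases of the site. A second match to the seed in the same transcript (GTCTTCC, own strand) had 8 paired bases. The seed match occurred in 20 of the 108 lincRNAs. Cyrano stood at 17.7 FPKM in KO (2100 fragments) and 15.4 FPKM in WT (1811 fragments). Its ratio of 1.15 (interval 1.08 to 1.22) was higher beyond counting error as deposited, but its log2 ratio was 0.19 as deposited and -0.0026 when both libraries were given the same sum.

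The hosts of snoRNAs carry, in their introns, small RNAs that guide chemical modification of ribosomal and other RNAs. The table held 21 such hosts and 5 were among the 108, since others such as Gas5 and Snhg1 have another biotype. Epb41l4aos (chromosome 18) had 21.6 FPKM in KO (133 fragments) and 11.5 FPKM in WT (70 fragments), a log2 ratio of 0.86. Snhg20 had 12.3 FPKM in KO (492 fragments) and 8.82 FPKM in WT (349 fragments), a log2 ratio of 0.44. Both were higher in KO beyond counting error. Snhg18 had 23.5 FPKM in KO (500 fragments) and 26.9 FPKM in WT (566 fragments), was lower beyond counting error and had a log2 ratio of -0.19. Snhg6 stood at 12.1 FPKM in KO and 11.1 FPKM in WT, and Snhg12 at 7.71 FPKM in KO and 7.44 FPKM in WT, with intervals that held 1. Over the 19 hosts of any biotype that averaged 1 FPKM or more, 4 were higher and 5 lower, with a median log2 ratio of 0.09. With the same sum of FPKM 2 were higher and 6 lower, where 8.53% of all genes past 3 FPKM were higher and 49.2% lower. Inside 6 of the 108 lincRNAs lay 10 annotated snoRNA or scaRNA genes, of which 8 were at 0 in both libraries. Of 11 genes for snoRNA-protein complexes, 2 were higher in KO beyond counting error and 0 lower: Snu13 had 31.5 FPKM in KO and 26.0 FPKM in WT, and Nop10 had 44.6 FPKM in KO and 39.2 FPKM in WT. Over all genes 27.4% were higher and 16.5% lower as deposited. With the same sum neither Snu13 nor Nop10 was higher and 5 of the 11 were lower, where 49.2% of all genes were lower.

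The developmental RNAs were both lower in KO beyond counting error. Bvht (Braveheart, chromosome 18), known from the commitment of mouse embryonic stem cells to heart lineages, had 12.6 FPKM in KO (126 fragments) and 22.7 FPKM in WT (225 fragments), with a log2 ratio of -0.80 and a ratio interval of 0.442 to 0.693. Rmst, a long RNA known from neural differentiation, had 3.50 FPKM in KO (372 fragments) and 6.32 FPKM in WT (664 fragments), with a log2 ratio of -0.70 and a ratio interval of 0.487 to 0.631. Neither reached 2-fold on the scale with the pseudocount. Rmst shares 38.8% of its exon bases with other annotated noncoding genes, so its reads could be divided between them. Pantr1, whose start lies 926 bases from that of the neural transcription factor gene Pou3f3, had 3.65 FPKM in KO and 3.82 FPKM in WT, and its interval held 1. Of the 7 developmental RNAs of any biotype that averaged 1 FPKM or more, 0 were higher and 3 lower, where 27.4% of all genes were higher and 16.5% lower. Of a list of 12 RNAs described in fat cells, 4 were in the table, and 0 of these reached a mean of 1 FPKM.

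Gm26917, the third most abundant lincRNA, lies 12 bases from CT010467.1, a gene annotated as ribosomal RNA on chromosome 17. It had 60.8 FPKM in KO (2893 fragments) and 66.9 FPKM in WT (3154 fragments), with a log2 ratio of -0.14 and a ratio interval of 0.863 to 0.956. CT010467.1, on the opposite strand, had 601 FPKM in KO and 522 FPKM in WT as deposited, the opposite order. With the same sum of FPKM in both libraries every FPKM ratio of KO over WT is multiplied by 0.869, so the order of CT010467.1 depends on the scaling. Gm26917, already lower as deposited, could only go lower under that scaling (interval 0.750 to 0.831). The other abundant lincRNAs have no assigned role. AU015791 had 36.7 FPKM in KO (764 fragments) and 22.7 FPKM in WT (468 fragments), the largest log2 ratio among the 12 most abundant after Gm10076, at 0.67. Gm11728 had 48.2 FPKM in KO and 38.7 FPKM in WT (log2 ratio 0.31), Gm32255 had 35.3 FPKM in KO and 29.4 FPKM in WT (0.26), and Tmem250-ps had 25.1 FPKM in KO and 21.7 FPKM in WT (0.20). These 4 were higher in KO beyond counting error as deposited, and AU015791 also with the same sum of FPKM in both libraries, where the intervals of the other 3 held 1. As deposited, the intervals of Gm12121 (26.0 FPKM in KO, 21.5 FPKM in WT) and Gm13652 (23.8 FPKM in KO, 23.3 FPKM in WT) held 1.

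Across all 108 lincRNAs the log2 ratios had a median of 0.09 and quartiles of -0.14 and 0.37. The median over all 11079 genes above the threshold was 0.03, so the lincRNA median stood 0.05 above it. Ratios were above 0 for 69 lincRNAs and below 0 for 39, where 6398 of all 11079 genes were above 0 and 4680 below. The number of lincRNAs above 0 was 43 with the same sum of FPKM in both libraries and 54 with scaling by fragment totals. As deposited, the median distance of the lincRNAs from 0 was 0.25 on the log2 scale, against 0.13 for all genes and 0.13 for protein-coding genes. Beyond counting error 31 of the 108 were higher in KO (28.7%), where 27.4% of all genes and 27.9% of protein-coding genes were, and 13 were lower (12%), where 16.5% of all genes and 17% of protein-coding genes were. The remaining 64 had intervals that held 1. Of the 31, 9 were under 3 FPKM in WT, and of the 13, 2 were under 3 FPKM in KO, so these passed the threshold through the library in which they were higher. With both libraries scaled to the same sum of FPKM, the all-gene median shifted by -0.18 on the log2 scale. Under that scaling 18 of the 108 were higher in KO and 25 lower beyond counting error, where 8.53% of all genes were higher and 49.2% lower. The lincRNA median then stood 0.07 above the all-gene median.

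**Figure D2:**
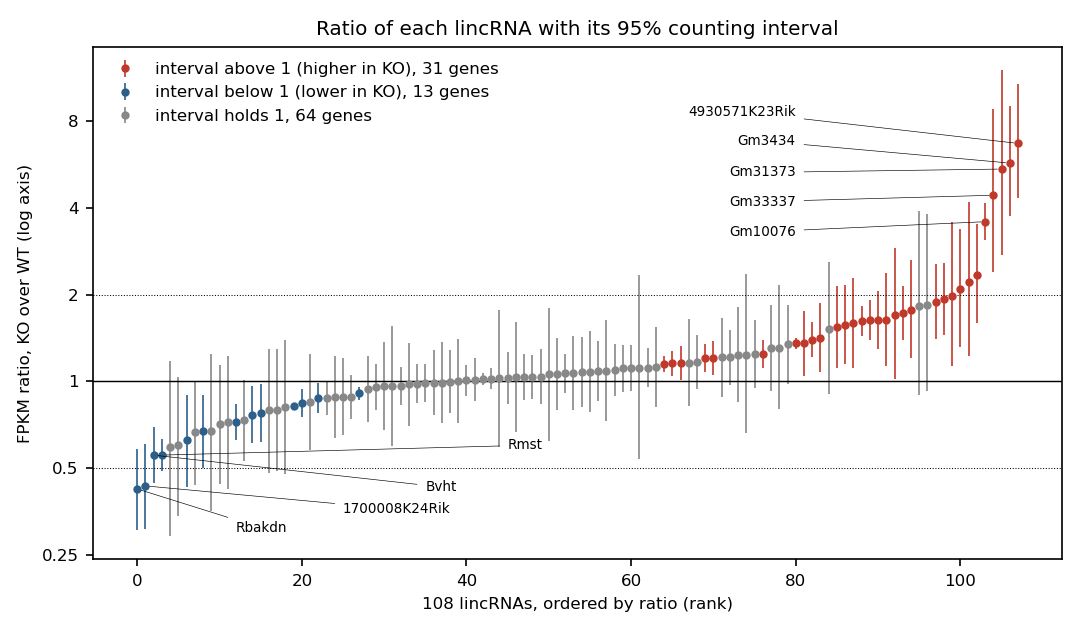
FPKM ratio of KO over WT (log axis) for each of the 108 lincRNAs, ordered from lowest to highest, with the 95% counting interval as a bar; dotted lines mark ratios of 2 and 0.5. The intervals of 31 lie above 1, those of 13 lie below 1, and 5 points stand apart at the upper end.

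At least 2-fold differences, on the scale with the pseudocount, were few. There were 5 lincRNAs at least 2-fold higher in KO (4.63%), where 1.4% of all genes and 0.963% of protein-coding genes were, and 2 at least 2-fold lower (1.85%), where 0.505% of all genes and 0.206% of protein-coding genes were. All 7 were also past counting error. The 5 higher ones were separated from the next, 4833427F10Rik, Gm36543, Gm26532 and Epb41l4aos, whose log2 ratios were 0.90, 0.88, 0.86 and 0.86.

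Gm10076 was the second most abundant lincRNA in KO, with 153 FPKM (838 fragments), against 42.7 FPKM in WT (232 fragments), a log2 ratio of 1.81 and a ratio of 3.58 (interval 3.09 to 4.15). Its gene (ENSMUSG00000060143, chr14:105681828-105682211, plus strand) has single-exon transcripts and a length of 384 bases. It is a near-copy of the messenger RNA of Rpl41, a protein of the large ribosomal subunit: 383 of its bases aligned to an Rpl41 transcript at 99.5% identity. Below are the coding frame of Rpl41 and the matching window of Gm10076, at bases 42 to 119 of its transcript. They are shown because a read wholly inside them cannot be assigned by sequence. Bases that differed would stand in capitals, and there were 0 in 78:
Gm10076: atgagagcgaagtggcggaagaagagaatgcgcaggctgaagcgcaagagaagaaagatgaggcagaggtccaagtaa
Rpl41: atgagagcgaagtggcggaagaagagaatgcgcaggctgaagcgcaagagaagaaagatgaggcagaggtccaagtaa
Rpl41 had 674 FPKM in KO (11264 fragments) and 648 FPKM in WT (10724 fragments), a ratio of 1.04 (interval 1.01 to 1.07). Gm10076 took 6.92% of the fragments of the pair in KO and 2.12% in WT. With the fragments of both genes added, the ratio was 1.09 (interval 1.07 to 1.12). The sources used here do not say how reads that match several places were counted, so the level and the ratio of Gm10076 are uncertain.

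Gm3434 (ENSMUSG00000098390, chr9:36134246-36135630, minus strand, 573 bases of exon) had the highest log2 ratio with the pseudocount of 1 FPKM, 2.20; the FPKM ratio itself was higher for 4930571K23Rik, below. It stood at 18.3 FPKM in KO (150 fragments) and 3.20 FPKM in WT (26 fragments), a ratio of 5.71 (interval 3.75 to 9.03). It also has a relative, Gm3428 on the same chromosome, whose transcript was 96.5% identical over 521 bases and which had 28.6 FPKM in KO and 18.3 FPKM in WT, a ratio of 1.56. Its nearest protein-coding gene, Gm5916, lies 5467 bases downstream on the same strand and was also higher in KO, with 23.4 FPKM in KO (383 fragments) and 5.01 FPKM in WT (81 fragments), a log2 ratio of 2.02. The other protein-coding gene within 250 kb, 9230113P08Rik, named here after its values were seen, had 107 FPKM in KO and 19.1 FPKM in WT, a log2 ratio of 2.43. The lincRNA and both protein-coding genes were thus higher in KO, with log2 ratios of 2.02 to 2.43. The 100 bases before the starts of the lincRNA and of Gm5916 (RefSeq, GRCm38.p6, minus strand; capitals mark bases identical in an alignment of the 300-base windows around the starts) read:
Gm3434, chr9:36135631-36135730: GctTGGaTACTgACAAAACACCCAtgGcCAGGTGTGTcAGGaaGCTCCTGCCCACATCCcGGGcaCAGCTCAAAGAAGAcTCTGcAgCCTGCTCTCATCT
Gm5916, chr9:36128780-36128879: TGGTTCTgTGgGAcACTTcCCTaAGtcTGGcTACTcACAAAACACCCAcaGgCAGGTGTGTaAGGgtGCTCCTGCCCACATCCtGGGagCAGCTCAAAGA
Over the whole windows 206 of 283 aligned positions were identical (72.8%), so the starts of these neighbours are related in sequence.

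Gm33337 (chromosome 10), the shortest of the 108 at 228 bases, had 17.8 FPKM in KO (58 fragments) and 4.03 FPKM in WT (13 fragments), a log2 ratio of 1.90 and a ratio interval of 2.39 to 8.79. 4930571K23Rik (chromosome 7), a single-exon RNA of 2153 bases, had 5.26 FPKM in KO (162 fragments) and 0.787 FPKM in WT (24 fragments), a log2 ratio of 1.81 and an FPKM ratio of 6.68 (interval 4.34 to 10.7). Gm31373 (chromosome 1) had 5.22 FPKM in KO (55 fragments) and 0.958 FPKM in WT (10 fragments), a log2 ratio of 1.67 and a ratio interval of 2.75 to 11.98. Here 4930571K23Rik and Gm31373 passed the threshold only through their KO value. None of these 3 has a near-identical copy above the limits used or shares exon bases with another gene.

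The 2 lower lincRNAs were Rbakdn (chromosome 5), named as a downstream neighbour of the zinc finger gene Rbak, and 1700008K24Rik (chromosome 17). Rbakdn had 6.16 FPKM in KO (56 fragments) and 14.5 FPKM in WT (131 fragments), a log2 ratio of -1.12 and a ratio interval of 0.304 to 0.583. 1700008K24Rik had 3.90 FPKM in KO (53 fragments) and 8.99 FPKM in WT (121 fragments), a log2 ratio of -1.03 and a ratio interval of 0.308 to 0.604. Rbak itself had 3.26 FPKM in KO and 3.19 FPKM in WT, and its interval held 1. Next came Bvht and Rmst, described above, and then Gm47814, at 2.77 FPKM in KO (15 fragments) and 4.67 FPKM in WT (25 fragments), whose interval of 0.291 to 1.17 held 1. Gm53, beside Hoxb9 in the Hoxb cluster, had 6.04 FPKM in KO and 8.35 FPKM in WT (log2 ratio -0.41), and Tbx3os2, beside the limb and breast transcription factor gene Tbx3, had 2.65 FPKM in KO and 4.25 FPKM in WT (-0.52). Both were lower beyond counting error. So were Hoxb9 (36.3 FPKM in KO, 40.6 FPKM in WT) and Tbx3 (22.4 FPKM in KO, 24.4 FPKM in WT). With the same sum of FPKM in both libraries every ratio is multiplied by 0.869, so these lower calls could not be lost there. Over all genes past 3 FPKM, 16.5% were lower as deposited and 49.2% under that scaling.

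**Figure D3:**
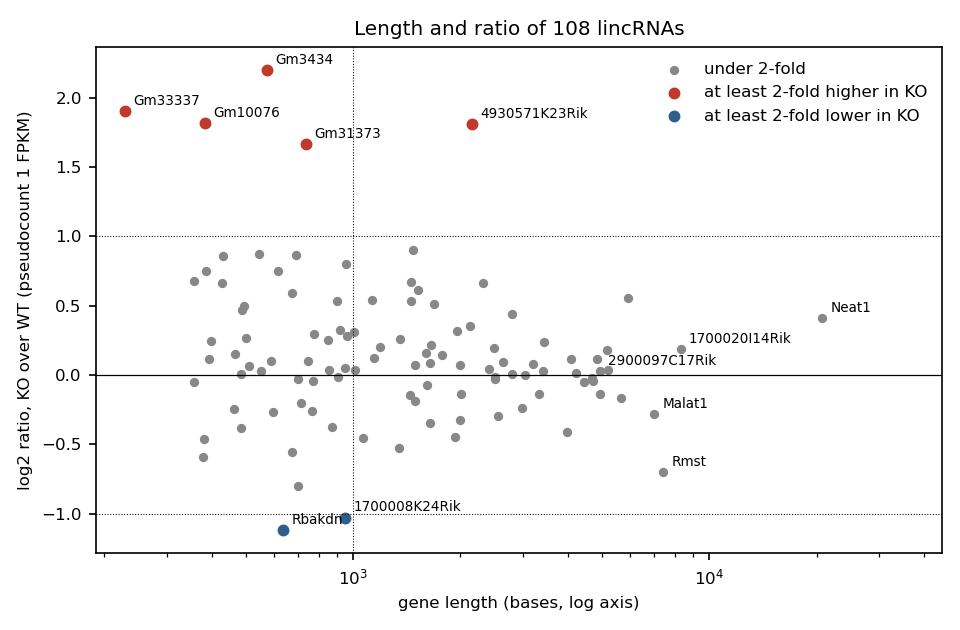
Gene length (log axis) against the log2 ratio of KO over WT for the 108 lincRNAs; dotted lines mark 1000 bases and 2-fold. Of the 7 coloured points past 2-fold, 6 lie left of 1000 bases, and 4930571K23Rik is the one to the right of it.

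Length went with the size of the ratio. Of the 7 lincRNAs past 2-fold, 6 were shorter than 1000 bases. Under 1000 bases, 6 of 47 lincRNAs were past 2-fold (12.8%), against 12.4% of all 997 genes and 11.1% of the 352 protein-coding genes of such length above the threshold. At 1000 bases or more, 1 of 61 was (1.64%), against 0.863% of all genes and 0.814% of protein-coding genes. Over all lengths 6.48% of lincRNAs, 1.9% of all genes and 1.17% of protein-coding genes were past 2-fold. In narrower classes the lincRNA share was below or above that of all genes on few genes each: 2 of 17 (11.8%) against 19.1% under 500 bases, 4 of 30 (13.3%) against 6.6% at 500 or more but under 1000 bases, 0 of 26 against 2.96% at 1000 or more but under 2000 bases, and 1 of 35 (2.86%) against 0.529% at 2000 bases or more. Across the 108, Spearman's rho between length and the size of the log2 ratio was -0.34 and that between total fragments and the size of the ratio -0.26, whereas that between mean level and the size of the ratio was -0.06. These are descriptions over genes that share the same pair of libraries and are not independent; a short gene also has fewer fragments at a given FPKM.

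**Figure D4:**
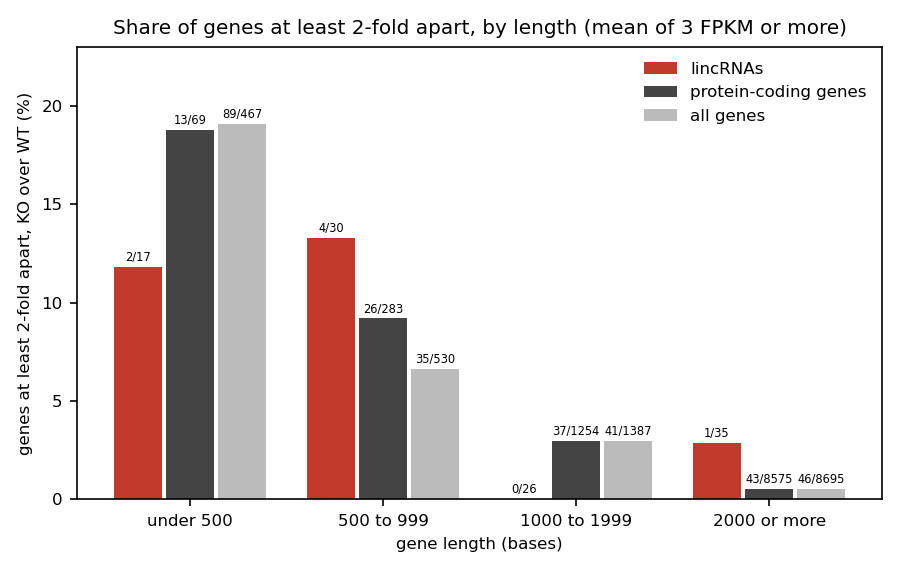
Percent of genes at least 2-fold apart between KO and WT in either direction, by gene length, for the lincRNAs, for protein-coding genes and for all genes past the threshold of 3 FPKM; numbers over the bars give genes past 2-fold over genes counted. All 3 sets have their higher shares under 1000 bases, and the lincRNA bar under 500 bases rests on 17 genes.

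The 4 longest lincRNAs were Neat1 (20771 bases), Cyrano (8306 bases), Rmst (7423 bases) and Malat1 (6983 bases), whose values are given above. The shortest after Gm33337 were Gm15835 (356 bases), Gm12319 (357 bases) and Gm47814 (378 bases). Gm15835 had 4.71 FPKM in KO (24 fragments) and 2.58 FPKM in WT (13 fragments), with an interval of 0.895 to 3.91, and Gm12319 had 13.1 FPKM in KO (67 fragments) and 13.6 FPKM in WT (69 fragments), with an interval of 0.677 to 1.37. Both intervals held 1. In all, 43 of the 108 had intervals inside 1.5-fold in both directions.

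By position, 14 lincRNAs had a divergent start within 1000 bases of a protein-coding gene's start, 11 overlapped a protein-coding gene, 24 lay within 5 kb of one and 59 lay farther away. The 14 with a divergent start had a median log2 ratio of -0.03, with 2 higher and 1 lower beyond counting error. The 59 farther ones had a median of 0.22, with 22 higher and 7 lower, and held all 7 that were past 2-fold, where 27.4% of all genes were higher, 16.5% lower and 1.9% past 2-fold. Among the divergent ones, Gm16001 had 2.70 FPKM in KO (41 fragments) and 4.05 FPKM in WT (61 fragments), and its interval of 0.437 to 1.01 held 1. Over 90 lincRNAs whose nearest protein-coding gene averaged 1 FPKM or more, Pearson's r between the log2 ratios of the pair was 0.17, and without Gm3434 and Gm5916 it was -0.13. The positive value thus rested on that pair, and no relation is read from the others. Gm10076, for example, lay 209736 bases from Spry2, an inhibitor of growth factor signalling, which had 13.1 FPKM in KO and 20.1 FPKM in WT.

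**Figure D5:**
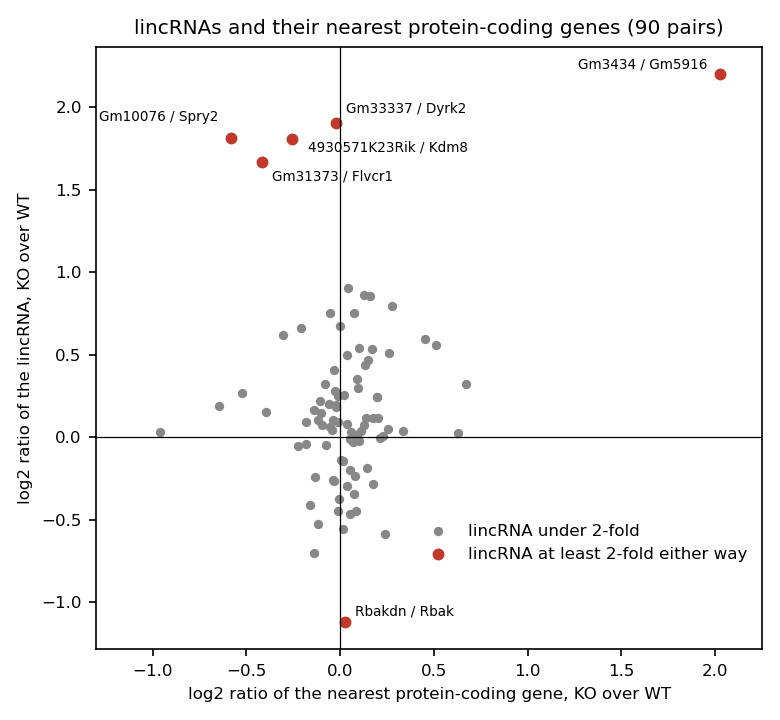
Log2 ratio of KO over WT of the nearest protein-coding gene (horizontal) and of the lincRNA (vertical) for the 90 pairs in which the neighbour averaged 1 FPKM or more. Gm3434 with Gm5916 is the one pair at the upper right, and the other lincRNAs past 2-fold have neighbours with log2 ratios between -0.58 and 0.02.

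Of the 108, 58 matched a gene start in the RefSeq promoter table (GRCm38.p6; 250 bases before to 50 after the start). The motif TATAAA, on either strand, occurred in 12.1% of these windows, against 6.97% for protein-coding genes above the threshold and 14.2% of all windows in the table. CCAAT, on either strand, occurred in 29.3%, against 38.8% for those protein-coding genes and 37.9% of all windows. The median GC content was 55.0%, against 61.3% for the protein-coding genes and 52.7% for all windows. The median ratio of observed to expected CpG was 0.549, against 0.779 for the protein-coding genes and 0.388 for all windows. The windows of the lincRNAs were thus lower in GC and CpG than those of protein-coding genes at the same level threshold. They were higher than all windows in the table, and both comparisons describe letters only. The GENCODE M21 exons showed 93 of the 108 with spliced transcripts and 15 with single-exon transcripts only. Exon bases of 23 were shared with another gene, and in AI480526, 4932422M17Rik and Gm38102, named after their values were seen, over 50% were shared, since AI480526 on the minus strand overlaps each of the other two on the plus strand. In 6 lincRNAs lay 15 mature microRNAs, among them those of miR-101a in E130102H24Rik and of miR-30c in Gm27028, which were likewise named after the values were seen.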

How the data were processed

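The authors deposited 1 FPKM value per gene for each of the 2 libraries, with gene length, position and biotype; HISAT2 2.0.5, mm10 and hg38 appear in the submitters' processing notes. The counting program and its treatment of strand and of reads matching several places are not given there. Whole fragments were recovered from FPKM and length (tolerance 0.01 fragments), and 100% of non-zero values came out whole. In these, 1 fragment on 1 kb was worth 0.0699 FPKM (KO) and 0.0706 FPKM (WT). No molecular identifiers are described, so intervals cover counting error only. Differences are log2((KO + 1)/(WT + 1)), which understates changes of low genes; higher or lower beyond counting error means that the 95% Clopper-Pearson interval of the ratio excluded 1. The rule for naming took the 12 highest means, the 10 highest and 10 lowest log2 ratios among lincRNAs with at least 50 fragments, all with a listed role, those at the threshold, the 4 longest and 4 shortest and their neighbours; not all of these are named. The lincRNAs and all gene lists were chosen with earlier results of these data known. Exons and transcripts came from GENCODE M21 (105 of the 108 had the same start and end there); near-identical copies were sought with BLAST+ 2.17.0 (at least 95% identity over at least 50% of the transcript). Python 3.11.15, pandas 2.3.3, SciPy 1.17.1 and Biopython 1.88 were used. The interval calls were tested on simulated data with counting error only, which cannot show how they behave with spread between libraries or mice. H19, Meg3 and Gm42031 were left out.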

Additional observations from a re-analysis of the deposited data

How the results depend on the processing

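No paired analysis was possible because each genotype had 1 library. The 5 lincRNAs at least 2-fold higher in KO became 8 with a pseudocount of 0.1 FPKM and 3 with one of 5 FPKM, and the 2 lower became 0 with 5 FPKM; all 3 other scalings left 5 and 2. Gm10076, Gm33337 and Gm3434 stayed past 2-fold under each pseudocount and scaling. The 31 higher and 13 lower beyond counting error became 18 and 25 when both libraries were given the same sum (TPM), by construction of that scaling. The median log2 ratio of 0.09 became -0.082 with TPM and 0.0057 with scaling by fragment totals. Changing which genes enter changed the counts by construction, since the number of genes changed too. With a floor of 1 FPKM, 11 of 341 were 2-fold higher and 5 were 2-fold lower. Beyond counting error, 63 of these 341 were higher and 31 lower. With a floor of 5 FPKM, 3 of 53 were 2-fold higher and 19 higher beyond counting error. With lengths of at least 500 bases, 3 of 91 were 2-fold higher. With H19, Meg3 and Gm42031 put back, 4 of 111 were 2-fold lower. Without lincRNAs with a near-identical copy (an alternative chosen after seeing the data) 3 of 103 were 2-fold higher. The share of fragments was 0.407% (KO) and 0.434% (WT) with a floor of 1 FPKM, 0.295% (KO) and 0.319% (WT) with 5 FPKM, 0.320% (KO) and 0.350% (WT) with at least 500 bases, 0.339% (KO) and 0.380% (WT) with those 3 put back, and 0.299% (KO) and 0.327% (WT) without near-identical copies. Without Malat1, also chosen after seeing the data, it was 0.222% (KO) and 0.214% (WT). Of 200 recomputed log2 ratios of 40 named lincRNAs, 21 left their counting interval. Sign changes were counted only for those past 2-fold and were 0, but these settings could not turn a sign of that size. Smaller ratios did change sign with TPM, for example Norad from 0.03 to -0.17 and Snhg12 from 0.05 to -0.13. Depth limits the short lincRNAs most.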
